A study of Caenorhabditis elegans with 12 samples.

Results

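The 240 shared MRG-1 sites in the center of chromosome III are stretches of the genome under a ChIP-seq peak in all 6 peak lists of the series, in *glp-4(bn2)* animals without a germline as well as in N2 animals. Merging all peaks that shared 1 bp or more gave 8226 sites. The 240 were selected on the measured calls themselves: a peak in every sample, a merged width under 8000 bp, and a midpoint between 3.72 and 10.34 Mb of chromosome III in the ce10 build. They make up 2.92% of all sites and 7.98% of the 3009 sites of any chromosome that met the same criteria on calls and width. That they were called in both strains follows from how they were chosen and is not a finding.

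MRG-1 is the *C. elegans* counterpart of mammalian MRG15, a chromodomain protein of histone acetyltransferase complexes. Chromodomains of this family bind histone H3 that carries the methyl mark of transcribed gene bodies. The protein is supplied to the embryo by the mother and is needed for germ cells to survive and develop. The centers of the worm's autosomes recombine rarely and are rich in conserved genes that many tissues express, whereas the arms recombine often and hold more repeats. The genes under the sites were not analysed here, for want of gene coordinates in ce10.

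The mutant animals carried *glp-4(bn2)*, a temperature-sensitive allele that leaves the animals without a germline at 25°, and the other animals were the wild-type strain N2. Both were grown at 25° from synchronized first-stage larvae until most had reached the L4 stage, and chromatin of whole worms was precipitated with an antibody to MRG-1, with 3 samples for each strain. N2 samples therefore mix chromatin of germline and soma, and a peak in them cannot be assigned to either. Nothing in the labels says that the 3 samples of a strain came from separate cultures, so p-values measure only the spread between these samples. With 3 samples against 3, an exact permutation test cannot go below p = 0.1. The series also holds 6 input samples, for which no peak list was used.

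The *glp-4(bn2)* lists held 7441, 7303 and 7584 peaks and the N2 lists 7737, 7073 and 7407 peaks. The lists do not give the read depth. The background level against which a list was called, recovered from its p-values, was 68.9, 60.6 and 68.9 reads per base in *glp-4(bn2)* and 96.8, 88.9 and 77.2 reads per base in N2. All 3 *glp-4(bn2)* lists were thus called at a lower level than all 3 N2 lists (means 66.1 and 87.6, two-sided exact permutation test, p = 0.1).

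The members lay at 36.3 per Mb over the 6.62 Mb of the center, and took up 0.910 Mb or 13.7% of its length. Sites chosen in the same way lay at 31.4 per Mb in the center of chromosome II (224 sites between 4.88 and 12.02 Mb) and at 21.1 per Mb in the center of chromosome V (225 sites between 5.9 and 16.55 Mb). They were densest on the arms of chromosome III, with 51.8 per Mb (368 sites). The chromosome III center also held 106 sites of 8000 bp or more that were called in all 6 samples, which covered 23.6% of its length, against 15.2% in the chromosome II center, 5.47% in the chromosome V center and 5.85% on the chromosome III arms. With these broad sites counted, the density of sites called in all samples was 52.3 per Mb in the chromosome III center, 43.4 per Mb in the chromosome II center, 25.8 per Mb in the chromosome V center and 56.3 per Mb on the chromosome III arms, in the same order as before and with a smaller gap to the arms. The widest of the broad sites spanned 59421 bp. These densities describe where the calls fell, and no test was made because position was part of the choice.

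Along the center the members were unevenly spread. The first 0.5 Mb held 30 members and the second 24, whereas the stretches from 6.72 to 7.22 Mb, from 7.22 to 7.72 Mb and from 9.72 to 10.22 Mb held 12 each. The last 0.12 Mb alone held another 12. In windows of 100 kb, the count ran from 0, between 6.8 and 6.9 Mb, to 12, between 4.2 and 4.3 Mb, with 9 in each of the windows that began at 5.3, 8.7 and 10.2 Mb. Of the 67 windows, 19 held 2 members, the most frequent count. The first 0.5 Mb, with the most members, had the smallest share of its length in broad sites among the full 0.5 Mb stretches (10.9%), and the stretch from 4.72 to 5.22 Mb, with 15 members, the largest (41.0%). The share of bases called was higher in N2 than in *glp-4(bn2)* in every one of these stretches, by strain means.

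**Figure D1:**
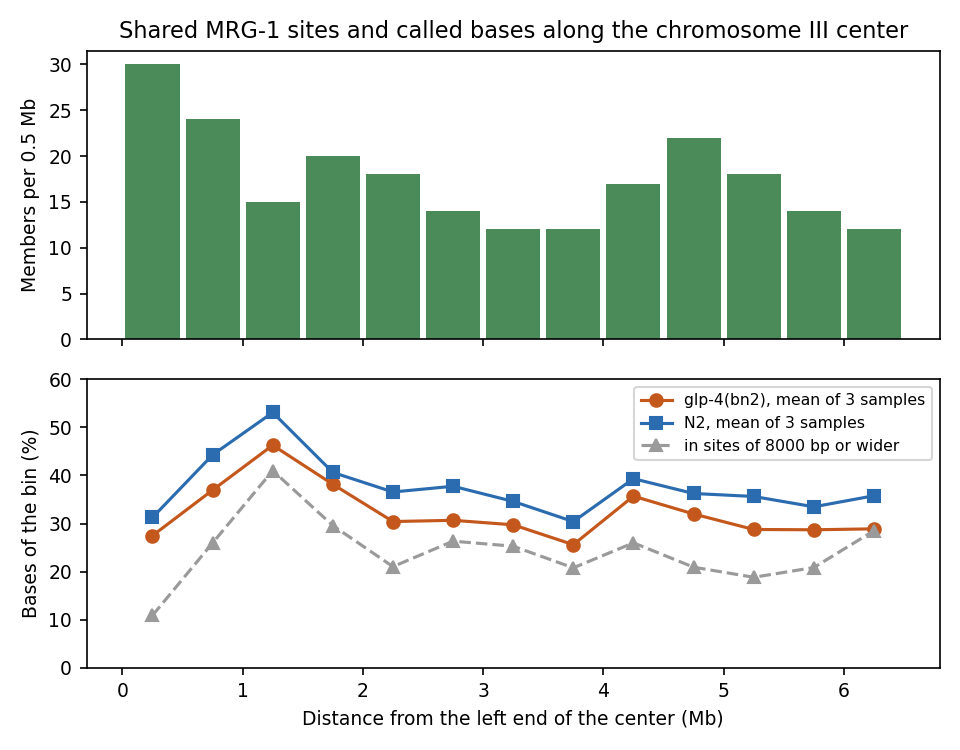
Upper panel, number of members in each full 0.5 Mb stretch of the chromosome III center against the distance from its left end in Mb (the last 0.12 Mb is not drawn); lower panel, percent of the bases of each stretch called in *glp-4(bn2)* and in N2 (means of 3 samples) and percent inside sites of 8000 bp or wider. Members are most frequent at the left end (30), where broad sites are least extensive (10.9%), and the N2 line lies above the *glp-4(bn2)* line throughout.

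Neighboring members were separated by a median of 11286 bp from edge to edge, with quartiles at 1319.5 and 36152.5 bp. Of the 239 distances, 56 (23.4%) were under 1 kb and 42 were over 50 kb. The spacing was close to that in the chromosome II center (median 11723 bp), narrower than in the chromosome V center (23329 bp) and wider than on the chromosome III arms (3502.5 bp), by medians alone. In 100 cases no other site lay between neighbors, at a median distance of 993 bp. In 72 cases at least 1 broad site did, at a median of 45816.5 bp, and in the remaining 67 cases only other sites did, at 7647 bp. These distances are partly fixed in advance, since a gap that holds a broad site must exceed 8000 bp and a longer gap has room for more sites. N2 replicate 2, the list with the fewest and longest-reaching peaks of the center (611 peaks over 2.59 Mb), also had the fewest peaks per member (1.196). Without that sample the same rule gave 308 sites, at a median distance of 6702 bp. The longest stretch of the center with no peak in any list measured 71656 bp (chrIII:6631838-6703493), and 10 of the 658 stretches without a call were over 50 kb.

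The closest pair of members, chrIII:3841173-3844560 and chrIII:3844601-3848040, was 40 bp apart and would have been 1 site had a single list bridged the gap. The left one had fold percentiles of 74.0, 77.2 and 78.1 in *glp-4(bn2)* and 77.1, 78.3 and 73.5 in N2. The right one had 52.1, 45.5 and 17.5 in *glp-4(bn2)* and 69.2, 74.8 and 59.0 in N2. The strains thus overlapped at the left site and not at the right one. A fold percentile is the rank of the site's highest-fold peak among all peaks of the same list, where 100 is the top. It was used because the fold is relative to the background of its own list. The longest distance, 164536 bp, separated chrIII:6731602-6734052 from chrIII:6898589-6905335, and 2 broad sites lay in it. These sites ranked at 76.0 and 77.4 in *glp-4(bn2)* and at 81.6 and 82.2 in N2 (means of 3 samples), above the mean of the members in both strains.

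The members were 553 to 7944 bp wide, with a median of 3668 bp (quartiles 2103.5 and 5332.5 bp). Median widths were 3357 bp in the chromosome II center, 3533 bp in the chromosome V center and 1847.5 bp on the chromosome III arms. The limit of 8000 bp passed between a member of 7944 bp (chrIII:8442946-8450889) and a broad site of 8098 bp (chrIII:4605480-4613577). The broad site had fold percentiles of 73.6, 75.2 and 74.0 in *glp-4(bn2)* and 79.4, 81.3 and 80.8 in N2, and the member above 99 in all 6 samples. At the ends of the center, the first member (chrIII:3790095-3792990) ranked between 71.9 and 77.4 in *glp-4(bn2)* and between 77.9 and 81.7 in N2, and the last site outside it on the left (chrIII:3661157-3664489) between 85.5 and 89.8 and between 83.4 and 85.1. On the right, the last member (chrIII:10330996-10338077) ranked between 88.5 and 94.0 in *glp-4(bn2)* and between 89.7 and 92.5 in N2, and the first site outside (chrIII:10351772-10357855) between 85.6 and 89.2 and between 81.0 and 89.9.

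Peaks reached over fewer bases in *glp-4(bn2)* than in N2. Over the whole center they covered 2.08, 2.22 and 2.07 Mb in *glp-4(bn2)* against 2.45, 2.59 and 2.40 Mb in N2, so that the strains did not overlap. The means were 2.13 ± 0.0831 Mb in *glp-4(bn2)* and 2.48 ± 0.0963 Mb in N2 (SD, n = 3 each), a difference of -0.352 Mb (exact permutation test, p = 0.1). As a share of all bases called in the list, the center took 14.7 ± 0.562% in *glp-4(bn2)* and 15.2 ± 0.428% in N2. The samples of the strains overlapped (difference -0.478, exact permutation test, p = 0.4, n = 3 each). In order of replicate number the shares were 14.7, 14.1 and 15.3% in *glp-4(bn2)* and 15.2, 14.7 and 15.6% in N2. Each was lower in *glp-4(bn2)* than in the same-numbered N2 sample. With a replicate block p was 0.25, the smallest possible (exact sign-flip permutation test). Within the members, 0.680, 0.730 and 0.668 Mb were called in *glp-4(bn2)* against 0.806, 0.845 and 0.790 Mb in N2. This is 76.1 ± 3.60% of the merged member bases in *glp-4(bn2)* and 89.4 ± 3.07% in N2 (SD, n = 3 each; difference -13.3 percentage points, exact permutation test, p = 0.1). The strains differed in the same direction in background level, as given above, and the part of that level in the called bases was not tested.

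The number of peaks per member did not separate the strains, at 1.39 ± 0.0981 in *glp-4(bn2)* and 1.36 ± 0.144 in N2 (SD, n = 3 each; difference 0.0361, exact permutation test, p = 0.7). Without *glp-4(bn2)* replicate 3 the difference was -0.0186. In 97 of the 240 members each sample had exactly 1 peak. Broad sites held 63.2% of the called bases of the center in *glp-4(bn2)* and 60.5% in N2 (exact permutation test, p = 0.1, n = 3 each), and members held 32.6% and 32.9% (p = 0.2).

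Most of the sequence in members was common to all lists, which follows in part from the choice of sites with a peak in every list. Of the 910004 member bases, 578856 (63.6%) were called in all 6 samples, and per member this common stretch had a median of 1970.5 bp. Bases under a peak in 2 or 3 samples of *glp-4(bn2)* but never in N2 came to 13181 (1.45%), against 102544 (11.3%) under a peak in 2 or 3 samples of N2 but never in *glp-4(bn2)*. Such stretches added up to at least 150 bp in 26 members for *glp-4(bn2)* and in 126 members for N2. Neither these counts nor the shares of bases were compared with the other shared sites. In 3 members no base was called in all 6 samples, which the merging of overlapping peaks allows.

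The summits, the points of highest pileup in the authors' peaks, fell close together in most pairs of samples, and less so over all 6. The distance between the summits of 2 samples at a member had a median of 83 bp between *glp-4(bn2)* samples, 73 bp between N2 samples and 91 bp between a *glp-4(bn2)* and an N2 sample. Over all 6 samples the summits of a member spanned a median of 362.5 bp. All 6 summits lay within 200 bp of each other in 77 members (32.1%) and spread over more than 1000 bp in 60. These counts were not compared with the other shared sites. At the median summit, 97.9% of members were under a peak in *glp-4(bn2)* and 98.8% in N2. At 1000 bp to the right, 52.5 to 61.3% were in the *glp-4(bn2)* samples and 69.2 to 74.6% in the N2 samples. At 1000 bp to the left, the ranges were 54.2 to 63.3% in *glp-4(bn2)* and 66.7 to 72.9% in N2. The samples of the strains were apart at these flanks. At the summits the high values follow from the choice of sites with a peak in every list.

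**Figure D2:**
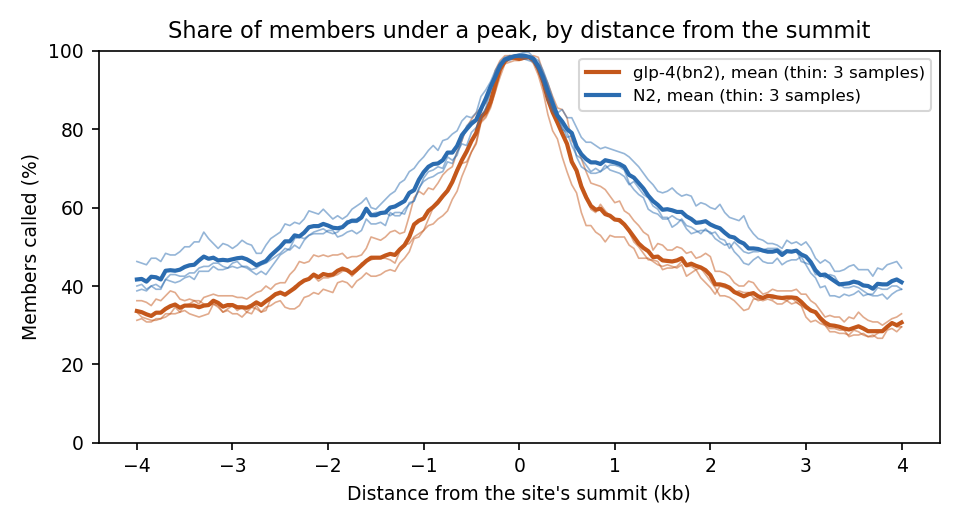
Percent of the 240 members under a peak (y axis) against the distance in kb from the median of the 6 summits of the site (x axis, along the reference strand), with thin lines for the 3 samples and a thick line for the mean of each strain. Both strains are close to 100% at the summit, and 1 kb to the right the *glp-4(bn2)* samples sit between 52.5 and 61.3% and the N2 samples between 69.2 and 74.6%.

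Counted by member, the bases called did not overlap between strains and were more in *glp-4(bn2)* in 24 members (10%) and more in N2 in 121 (50.4%). Over all 3009 sites called in 6 samples and under 8000 bp, the shares were 12% and 30.5%. The share of members with more bases in N2 was thus above that background, and it was shared by the other centers, with 110 of 224 (49.1%) in the chromosome II center and 111 of 225 (49.3%) in the chromosome V center. The background sites were narrower, with a median width of 2541 bp against 3668 bp in members, and these shares were not weighted by width. On the chromosome III arms it was 84 of 368 (22.8%). The difference between strains in the called share of site bases was -13.3 percentage points in members, -12.4 in the chromosome II center, -9.94 in the chromosome V center and -11.0 on the arms. Taken within samples, members minus the chromosome II center gave -1.68 percentage points in *glp-4(bn2)* and -0.767 in N2 on average (exact permutation test over samples, p = 0.1, n = 3 each). Members minus the chromosome V center gave -3.88 in *glp-4(bn2)* and -0.501 in N2 (exact permutation test, p = 0.1), and members minus the arms gave 2.91 and 5.21 (p = 0.8).

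In fold rank the members averaged the 66.5th, 69.1st and 66.0th percentile of the *glp-4(bn2)* lists and the 70.2nd, 70.8th and 69.6th of the N2 lists. All *glp-4(bn2)* samples were below all N2 samples. The means were 67.2 ± 1.66 in *glp-4(bn2)* and 70.2 ± 0.614 in N2 (SD, n = 3 each; difference -3.03, exact permutation test, p = 0.1). The difference was -4.75 without N2 replicate 2 and -4.84 with peaks at a q-value of at most 1e-05. The separation of the strains was lost when members were ranked by the mean fold of their peaks (difference -3.38, exact permutation test, p = 0.2) or among merged sites in place of peaks (-3.45, p = 0.2). The strain difference had the same sign in the chromosome II center (-2.70), the chromosome V center (-2.41) and the chromosome III arms (-5.19), and it did not differ between members and any of these (exact permutation tests, p = 0.7, 0.6 and 0.3, n = 3 each). With 3 against 3 samples that is no sign that the differences were equal. Over members the median difference was -2.77 percentage points, against -1.93 over all 3009 sites called in the same way.

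The members ranked lower than the sites of the chromosome II center in 6 of 6 samples, by 2.40 percentage points on average (members 68.7, chromosome II 71.1; SD of the difference 0.801). They also ranked lower than those of the chromosome V center in 6 of 6 samples, by 4.73 percentage points (chromosome V 73.4; SD 0.910). They ranked higher than the sites of the chromosome III arms in 6 of 6 samples, by 7.57 percentage points (arms 61.1; SD 2.08). Each exact sign-flip permutation test over the 6 samples gave p = 0.03125, the smallest possible, and 0.03125 after Benjamini-Hochberg adjustment over 3 comparisons. The 6 lists hold the same sites, so this tests how steady the difference was across samples, not across sites. The difference from the arms went with width. When the sites of the arms were weighted to the width classes of the members, a comparison added after the values were seen, members were 1.62 percentage points lower than the arms (exact sign-flip test, adjusted p = 0.0625). The difference from the arms was 3.68 with widths under 4000 bp. With the weighting by width members stayed below the chromosome II and V centers, by 2.13 and 3.34 percentage points (exact sign-flip tests, adjusted p = 0.046875 for both). Without a limit on width the differences shrank to -1.31 from the chromosome II center (exact sign-flip test, adjusted p = 0.046875) and to -1.04 from the chromosome V center (adjusted p = 0.0625), and with widths under 4000 bp the difference from the chromosome V center was -8.17.

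**Figure D3:**
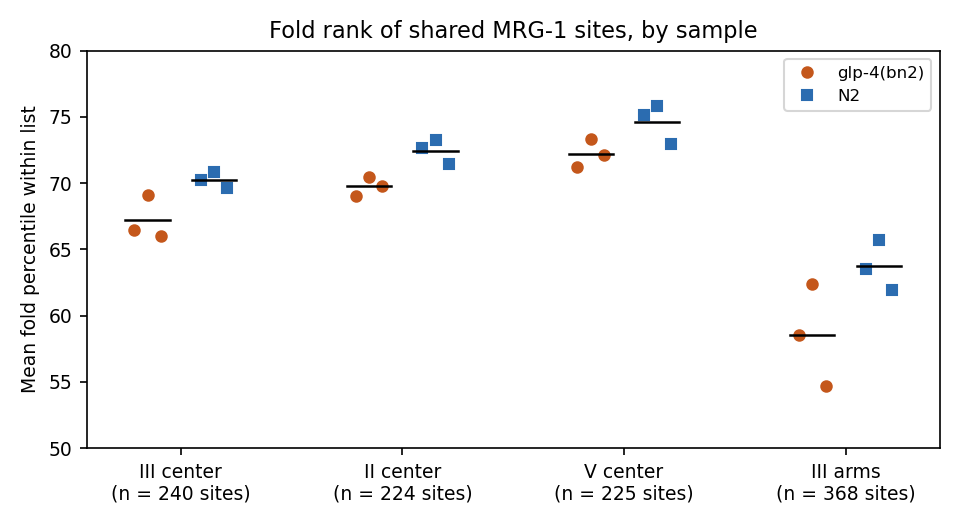
Mean fold percentile within the list (y axis, from 50) of the shared sites of the chromosome III center, the chromosome II center, the chromosome V center and the chromosome III arms, 1 point per sample with *glp-4(bn2)* left of N2 and a line at the mean of 3 samples. Members average 67.2 in *glp-4(bn2)* and 70.2 in N2, between the arms (58.5 and 63.7) and the other centers.

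Wider members ranked higher. Spearman's rho of width with fold percentile was between 0.629 and 0.658 across the 240 members in the 6 samples, a description for which members are not replicates. A wider site can hold more peaks and the highest was taken, so part of the relation is built into the measure. Members under 1000 bp averaged 37.4 in *glp-4(bn2)* and 47.1 in N2 (15 members), those from 2000 to 4000 bp 64.7 and 66.7 (81 members), and those from 6000 to 8000 bp 82.4 and 84.3 (41 members). The strain difference was -9.70 percentage points in the narrowest class and -1.88 in the widest. Points of rank are not equal steps of fold, so these classes are not on the same scale. At chrIII:5122404-5124622 folds of 2.06, 2.29 and 2.34 in *glp-4(bn2)* and 1.51, 1.80 and 1.42 in N2 lay 37.7 points apart. At chrIII:8442946-8450889 folds of 9.002, 10.4 and 8.28 in *glp-4(bn2)* and 11.6, 12.4 and 10.6 in N2 differed by -0.401 points. Of the arms, 22.3% of sites were under 1000 bp, against 6.25% of members.

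**Figure D4:**
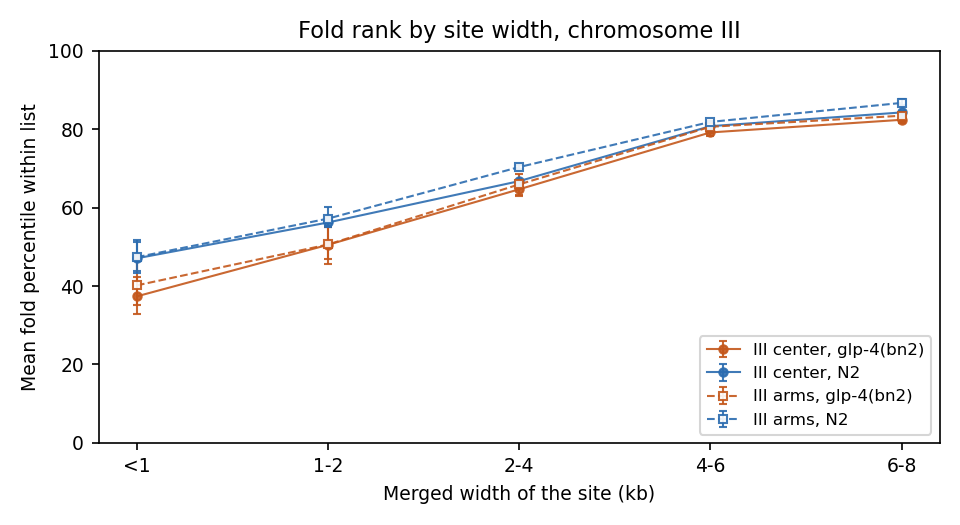
Mean fold percentile within the list (y axis) by merged width in kb (x axis) for members, with filled symbols and solid lines, and for chromosome III arms, with open symbols and dashed lines; *glp-4(bn2)* in orange, N2 in blue, and bars from the lowest to the highest of 3 samples. Members climb with width, to 82.4 in *glp-4(bn2)* and 84.3 in N2 in the widest class. The arms follow a similar curve and lie above the members in every class by strain means (83.4 and 86.7 in the widest).

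The member with the highest fold in every list was also the widest, chrIII:8442946-8450889. Those after it are ordered by their lowest percentile over the 6 samples. Its highest fold was 9.002, 10.4 and 8.28 in *glp-4(bn2)* and 11.6, 12.4 and 10.6 in N2, at percentiles between 99.4 and 99.96, and 96.6% of its 7944 bp were called in all 6 samples. By that order chrIII:5864297-5872046 followed, with folds of 8.83, 9.81 and 7.71 in *glp-4(bn2)* and 8.98, 8.68 and 8.40 in N2. The third, chrIII:5499037-5500441, stood out by its width of 1405 bp, with folds of 8.82, 9.75 and 7.77 in *glp-4(bn2)* and 8.67, 7.75 and 7.81 in N2. Its fold percentiles were above 98 in every *glp-4(bn2)* sample and between 94.4 and 96.8 in N2. The members that followed, chrIII:9402086-9408359 and chrIII:3914550-3922049, ranked above 93 in all samples. By N2 alone the order was different: chrIII:9402086-9408359, at 98.7, 99.6 and 99.5, was above chrIII:5864297-5872046, at 97.5, 97.3 and 97.4, in every N2 list. In all, 17 members ranked above 90 in every sample, with a median width of 5866 bp. That count was not compared with the same count over the other shared sites.

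Few members were weak throughout, which follows in part from the choice of sites called in every list and ranked by their highest peak. In 7 members the percentile was under 50 in all 6 samples, and in 153 (63.8%) it was above 50 in all 6. These counts were not compared with the same counts over all 3009 sites. There the median percentile was 63.2 to 68.1 by sample, against 71.2 to 76.7 in members. The weakest, chrIII:8410560-8412278, had folds of 1.77, 1.62 and 1.58 in *glp-4(bn2)* and 1.58, 1.71 and 1.65 in N2, at percentiles between 8.64 and 23.5. It lay 6587 bp from the next member to the right. Only 114 of its 1719 bp were called in all 6 samples. The weak member chrIII:10261057-10261824 ranked between 17.7 and 36.0 in *glp-4(bn2)* and between 14.5 and 26.9 in N2, and chrIII:4663503-4665001 between 13.0 and 30.7 in *glp-4(bn2)* and between 0.219 and 37.6 in N2. The narrowest member, chrIII:10274094-10274646 (553 bp), had percentiles of 32.3, 37.3 and 25.5 in *glp-4(bn2)* and 56.0, 43.8 and 52.7 in N2, which do not overlap.

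Ranks were reproducible between samples. Spearman's rho across the 240 members was 0.923 to 0.943 between *glp-4(bn2)* samples, 0.922 to 0.968 between N2 samples and 0.850 to 0.888 between a *glp-4(bn2)* and an N2 sample. These are descriptions across sites that share a list. The mean percentiles of the strains were within 10 percentage points in 164 members.

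In 36 members (15%) the 3 *glp-4(bn2)* percentiles were all above the 3 N2 percentiles, against 16.8% over all 3009 sites. The shares were 15.6% in the chromosome II center, 9.78% in the chromosome V center and 8.42% on the chromosome III arms. In 79 members (32.9%) all N2 percentiles were higher, against 25.2% over all 3009 sites, 28.1% in the chromosome II center, 28.9% in the chromosome V center and 25.3% on the arms. That count changed most without N2 replicate 2, when 131 of the 308 sites called in the other 5 lists leaned to N2. Leaving out each of the other samples gave 88 to 100 such members, and fewer samples overlap less readily by construction. Members that leaned to *glp-4(bn2)* had a median width of 2987.5 bp and lay a median of 621 bp from the nearest other site of any kind. Those that leaned to N2 were 3952 bp wide and lay 210 bp from it, and the 125 members with overlapping ranks were 3665 bp wide and lay 269 bp from it, by medians.

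**Figure D5:**
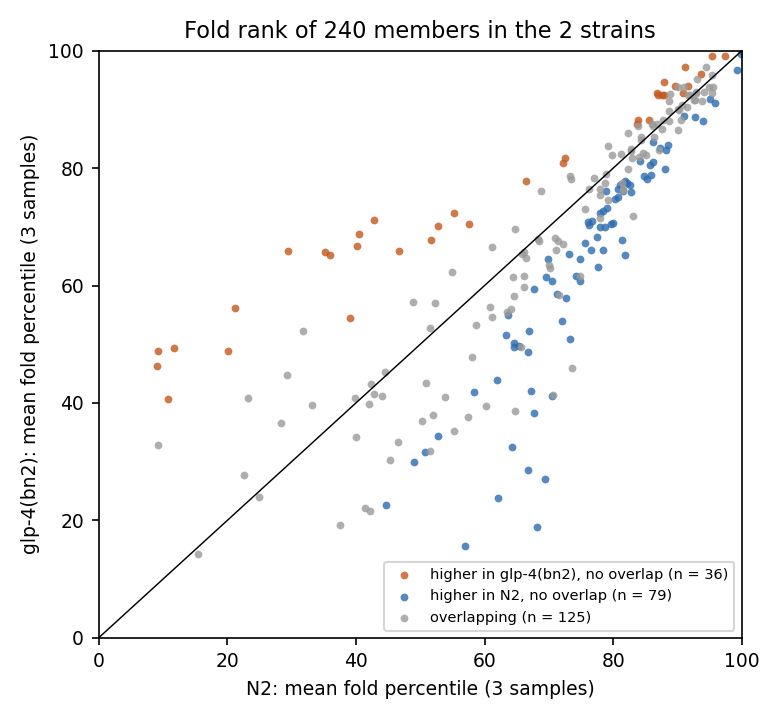
Mean fold percentile of each of the 240 members in *glp-4(bn2)* (y axis) against N2 (x axis), means of 3 samples each, with the line of equal rank; orange, all *glp-4(bn2)* samples above all N2 samples (36 members); blue, the reverse (79); gray, overlapping (125). The points tighten toward the diagonal at high ranks, and the widest departures are at low and middle ranks.

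The members with the largest lean to *glp-4(bn2)* were weak in N2. They were picked by that difference in rank, so a low N2 rank is partly built in. At low ranks a small difference in fold also spans many points of rank. At chrIII:3849709-3852529 the percentiles were 59.1, 63.9 and 23.4 in *glp-4(bn2)* and 0.743, 14.9 and 12.1 in N2, a mean difference of 39.6, with *glp-4(bn2)* replicate 3 well below the other samples of its strain. At chrIII:5122404-5124622 they were 43.6, 49.2 and 55.6 in *glp-4(bn2)* and 7.13, 26.3 and 1.75 in N2 (difference 37.7). Here 608 bases were called in *glp-4(bn2)* only, and no base was called in all 6 samples. At chrIII:9168225-9172440 the peaks covered 3867, 4120 and 4122 bp in *glp-4(bn2)* and 772, 1263 and 554 bp in N2. Its percentiles were 47.7, 48.4 and 42.9 in *glp-4(bn2)* and 7.92, 10.1 and 9.36 in N2, and again no base was common to all samples. The fourth, chrIII:6082469-6084497, was steady in *glp-4(bn2)*, at 65.6, 65.8 and 66.1, and ranged from 20.2 to 37.6 in N2. The highest percentile that any of these sites reached in any sample was 66.1.

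Among members that leaned to N2 the largest difference was -49.3 percentage points, at chrIII:9832864-9834826. Its percentiles were 26.5, 15.8 and 14.4 in *glp-4(bn2)* and 59.97, 71.6 and 73.1 in N2, and its folds 1.81, 1.69 and 1.65 in *glp-4(bn2)* and 2.65, 3.41 and 3.42 in N2. At chrIII:4782962-4785230 the peaks covered 772, 1381 and 1278 bp in *glp-4(bn2)* and 2235, 2269 and 2256 bp in N2, nearly the whole site in every N2 sample. Its percentile difference was -42.4, and chrIII:10246845-10247755 followed with -41.4. At chrIII:7307854-7310709 (-38.3) the called bases came to 699, 543 and 386 in *glp-4(bn2)* and 2546, 2614 and 2770 in N2, and 1865 bases were called in N2 only. In 14 members the mean difference exceeded 20 percentage points toward *glp-4(bn2)* and in 17 toward N2, with median widths of 2095.5 and 1963 bp, both narrower than the members as a whole. These counts were not compared with the same counts over all 3009 sites. There the differences had quartiles of -9.63 and 3.12, against -8.30 and 1.78 in members.

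The gap between the strains in mean percentile, taken over all members of a stretch, varied along the center. Between 9.72 and 10.22 Mb the 12 members averaged 51.0 in *glp-4(bn2)* and 63.4 in N2, the largest gap toward N2 among the full 0.5 Mb stretches. Between 7.72 and 8.22 Mb the 17 members averaged 77.2 in *glp-4(bn2)* and 71.0 in N2, the largest gap toward *glp-4(bn2)*. The stretches were set by distance from the left end of the center, and no test was made of the differences between them.

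The members stood among other calls. The center held 659 sites in all, of which 52.5% were called in all 6 samples, against 55.7% in the chromosome II center, 45.2% in the chromosome V center and 39.8% on the chromosome III arms. Besides the 240 members and 106 broad sites, 44 sites (6.68%) were *glp-4(bn2)*-only, called in 2 or 3 samples of that strain and never in N2, and 106 (16.1%) were N2-only by the mirrored rule. Over the autosomes outside this center the shares were 6.31% and 13.4%, and broad sites made up 16.1% of the sites in this center and 6.80% of those outside it. In the chromosome II center the share of broad sites was 15.4%, close to that in chromosome III. The nearest site to a member, at a median of 279 bp, was another member-type site in 100 cases, a broad site in 44, an N2-only site in 38 and a *glp-4(bn2)*-only site in 5. A further 34 sites of the center were called in 5 of the 6 lists. The missing list was *glp-4(bn2)* replicate 1, 2 or 3 at 11, 2 and 9 of these sites and N2 replicate 1, 2 or 3 at 5, 4 and 3 of them.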

How the data were processed

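MRG-1 ChIP-seq samples of *glp-4(bn2)* and N2 animals were analysed from 1 deposited peak list each. Per the paper's methods, the authors mapped paired-end reads and called peaks replicate by replicate, extending reads to 300 bp and keeping a q-value below 0.05; the control is not named in the sources used here. The submitters' processing notes list Bowtie2 2.3.2, MACS2 2.1.0, bcl2fastq 2.18.0.12, bedtools 2.25.0 and ce10. The deposited fold is a ratio of pileup to background at the peak, and the deposited −log10 p-value and −log10 q-value and score rank peaks within a list. Because a fold is relative to the background of its own list, folds were turned into percentiles of their own list. Peaks overlapping by 1 bp or more were merged.

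The background level of a list was taken as the Poisson mean under which most of its p-values fall on whole read counts (72.9 to 79.3% of those with a −log10 of at most 60). The strains were compared on 1 value per sample by exact permutation (two-sided), and members with other regions by exact sign-flip tests over the 6 samples. Replicate numbers were not used to pair the samples: same-numbered samples had correlations of 0.0402, 0.132 and -0.0987 in their deviations from the strain means. By sample means, however, both strains had the same order of replicates. Replicate 2 was highest and replicate 3 lowest in mean percentile of members and in called share of member bases. Whether the numbers mark samples handled together was not tested.

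Sites named in the text were the 5 with the highest lowest percentile, the 3 with the lowest highest percentile, the 4 with the largest difference each way among those not overlapping, the widest and narrowest, those beside the longest and shortest distances, and those at the limits of the rule. Of the 3 widest, narrowest, most distant and closest, the first of each is described. The members and lists were chosen with earlier results of these data known. Alternatives were stricter q-value limits (0.001, 1e-05), merging at 150 bp, equal numbers of top peaks, a narrowed center, other width limits, ranking by −log10 q-value, by mean fold or among sites, and leaving out each sample. Weighting by width class, and all settings of the counts of members by bases called, were added after the values were seen. Site rules and level recovery were tested on simulated lists. Software was scipy 1.17.1, pandas 2.3.3 and numpy 2.4.6 under Python 3.11.15.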

Additional observations from a re-analysis of the deposited data

How the results depend on the processing

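Of 134 values recomputed with all samples kept, 121 held their direction, their side of the threshold or their size (within 1.5 times for counts). The tally includes differences with a replicate block, which equal the main ones by construction and could not fail. It also scores members and members per Mb separately, although only the narrowed center changes the length between them. With 3 samples against 3, no strain difference could cross the threshold, so only its direction was judged. A change from p = 0.1 to p = 0.2 (exact permutation tests) was thus counted as held. With peaks at a q-value of at most 1e-05 the median distance between members was 11624.5 bp, and with the center narrowed by 500000 bp at both ends it was 14260 bp. Without a limit on width it was 4506 bp, and the median width was 5154 bp. Of the 346 members under that setting, 198 had more bases called in N2. Their difference from the chromosome V center was -1.04 percentage points (exact sign-flip test, adjusted p = 0.0625). With widths under 4000 bp there were 138 members (20.8 per Mb), with a median distance of 15692 bp and a median width of 2248.5 bp. Of these 138, 42 were higher in N2 by percentile and 57 by bases called. The shares over all shared sites were not recomputed with these limits, so the counts are not read as changes in leaning. With the arms weighted to the members' width classes, a setting chosen after seeing the data, the difference from the arms turned to -1.62. Ranking by −log10 q-value kept p = 0.1 for the strain difference in mean percentile (-2.89, exact permutation test), and ranking by mean fold or among sites gave p = 0.2. The causes were not tested, beyond what the limits on width set by construction. Of 96 values with 1 sample left out, judged by direction for differences, 87 held. Without 1 sample, the median distance was 6702 to 10986 bp, the median width 3096.5 to 3626 bp, the members higher in N2 88 to 131 and the difference in peaks per member -0.0186 to 0.109. Samples with the same number were not taken as pairs; with a replicate block, judged by direction alone, the difference between strains in mean percentile was -3.03 (exact sign-flip permutation test, p = 0.25, the smallest possible). The lists do not give the read depth, so no interval was put on a fold, and a base without a call is not shown to be unbound.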
